A study of Mus musculus with 8 samples.

Results

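The circadian clock genes examined here are *Arntl*, *Clock*, *Per1*, *Per2*, *Per3*, *Cry1*, *Cry2*, *Nr1d1*, *Nr1d2* and *Dbp*. All 10 genes, of 16593 named genes on the array, had at least 1 probe, and they held 17 of its 25697 probes. The genes were chosen by their known role in the clock and with their intensity differences between the genotypes on these same arrays already in view. Their differences between the genotypes are therefore given as a description, without a test. The samples were kidneys of 4 male mice homozygous for a *Scube3* point mutation and of 4 wild type males, all C3HeB/FeJ and all 29 wk old, with 1 array per mouse. The mutation came from a chemical mutagenesis screen as a single line and exchanges an asparagine for a lysine in a calcium-binding EGF-like domain. Mice of C3H strains carry an inherited retinal degeneration and make melatonin, and both genotypes share this background. The hour at which each kidney was taken is not given in the sources used here, so a difference in hour between the genotypes cannot be told apart from the genotype.

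The clock is a loop of transcription and repression that runs in nearly every cell. ARNTL (also called BMAL1) and CLOCK form the activator, which binds E-boxes in front of the *Per*, *Cry* and *Nr1d* genes and of *Dbp*. PER and CRY proteins return to the nucleus and repress the activator, whereas NR1D1 and NR1D2 (REV-ERB alpha and beta) repress *Arntl* through ROR response elements and so oppose the ROR activators. DBP is an output transcription factor that binds D-boxes, including those of *Per* genes. In the tissues of a nocturnal mouse, *Arntl* transcripts peak around the end of the night, *Nr1d1* around midday, *Dbp* in the later day and the *Per* transcripts around dusk. In the kidney, clock genes are known to take part in the daily rhythm of sodium and water handling.

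Promoter stretches are shown because the clock proteins act on each other's genes through short elements of this kind. RefSeq windows on GRCm38.p6, from 250 bases before to 50 bases after an annotated start site, were available for 9 of the 10 genes, and *Per2* had none. Both strands were searched for the E-box CACGTG, the variant E-box CACGTT, the D-box as TTATGTAA or TTACGTAA, the core of the ROR element as TAGGTCA and the cAMP response element TGACGTCA. Of 32851 windows of the same length, 7.15% held the E-box, 4.68% the variant, 1.06% a D-box, 2.61% the ROR core and 1.79% the cAMP response element. Among the members, *Per1* and *Cry1* held an E-box, *Cry1*, *Cry2* and *Nr1d1* held the variant, *Per3* held 2 D-boxes and *Arntl* held a ROR core. *Dbp*, *Nr1d2* and *Clock* had none of these letters in their windows. The stretches that hold these elements in *Per1*, *Per3* and *Arntl* are printed 5′ to 3′ on the strand of the gene, with *Ciart*, a repressor of the activator that is no member but holds 3 E-boxes. Capitals mark the matched elements. The *Per1* stretch is chr11:69098766-69098805 (plus strand), the *Per3* stretch chr4:151044806-151044880 (minus strand), the *Ciart* stretch chr3:95882257-95882354 (minus strand) and the *Arntl* stretch chr7:113207530-113207552 (plus strand), which lies after the start site.
Per1: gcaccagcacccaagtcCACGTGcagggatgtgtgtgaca
Per3: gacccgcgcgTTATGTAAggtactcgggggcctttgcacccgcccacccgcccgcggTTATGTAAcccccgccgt
Ciart: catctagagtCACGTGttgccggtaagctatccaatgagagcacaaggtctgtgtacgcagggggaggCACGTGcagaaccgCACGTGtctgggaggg
Arntl: aaggcagaaagTAGGTCAgggac

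Scanned intensities were background-corrected, made alike in distribution across arrays (quantile normalization) and expressed as log2, and a probe counted as above background at a detection p under 0.05. On the 8 arrays 12602 to 13127 probes were above background, and 12914 probes, for 9000 genes, were so on at least 4 arrays and entered the limma fit. An adjusted p under 0.05 was reached by 16.8% of the probes tested, namely by 1015 (7.86%) with a higher and 1152 (8.92%) with a lower mutant mean. Scaling each array to its median instead split the calls into 241 and 1588. Both directions together gave 2167 probes, and 1138 without wild type replicate 1, 1324 without wild type replicate 2, 1324 without homozygous mutant replicate 2 and 1435 without homozygous mutant replicate 4. All 10 kidney tubule markers were above background, and 5 of them differed between the genotypes. *Slc12a1* (log2 difference -1.14, SE 0.13) and *Umod* (-0.54, SE 0.09), both of the thick ascending limb, and *Lrp2* (-0.47, SE 0.12) fell in the mutant mice, while *Pax8* (0.50, SE 0.11) and *Slc12a3* (0.30, SE 0.07) rose. Of markers of other tissues, 0 of 4 adipocyte genes, 1 of 6 adrenal genes (*Cyp11b2*) and 2 of 5 leukocyte genes were above background on at least 4 arrays, and *Ptprc* and *Star* were above it in no mouse. *Adipoq* was above background in 1 wild type and 2 mutant mice, with mutant replicate 3 the highest at 6.46 on the log2 scale and the others between 4.53 and 5.21, and *Cd3e* was so in 3 mutant mice. The summed intensity of 4 of the 5 urothelial markers ran from 169.8 to 213.7 in wild type and from 265.3 to 364.4 in mutant kidneys, and *Krt5* was not above background. All 4 were higher in the mutant mice, and the part of these cells, of the tubule segments or of fat in the clock gene values was not tested. In whole kidney, fewer cells of a type and less RNA per cell cannot be told apart.

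The 3 *Per* genes had lower means in the mutant kidneys, at 0.646 of the wild type level for *Per2* and 0.636 for *Per3*, while *Arntl*, the gene of the activator, was not. At their brightest probes the log2 differences, mutant minus wild type, were -0.65 for *Per3*, -0.63 for *Per2*, -0.52 for *Per1*, -0.40 for *Dbp* and -0.25 for *Nr1d2*, against 0.25 for *Arntl*. *Nr1d1*, *Cry2* and *Clock* lay between -0.14 and -0.03, and *Cry1* was not above background in any mouse. Of the 9 members above background, 8 had a lower mean in the mutant mice, where 44.5% of all 9000 genes did, and the median log2 difference was -0.25 for the members and 0.03 for all genes. *Per2* and *Per3* were past the threshold of an adjusted p under 0.05 and 7 were not, beside 16.3% of all genes past it in either direction and 7.88% lower. Since the genes were picked with this comparison known, nothing is read from that count. Without wild type replicate 1, 4 members were past the threshold, with *Dbp* and *Nr1d2* added, while the probes called fell from 2167 to 1138 of 12914. Any other mouse left out gave 2 or 3 members. Nothing is read from these counts either.

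**Figure D1:**
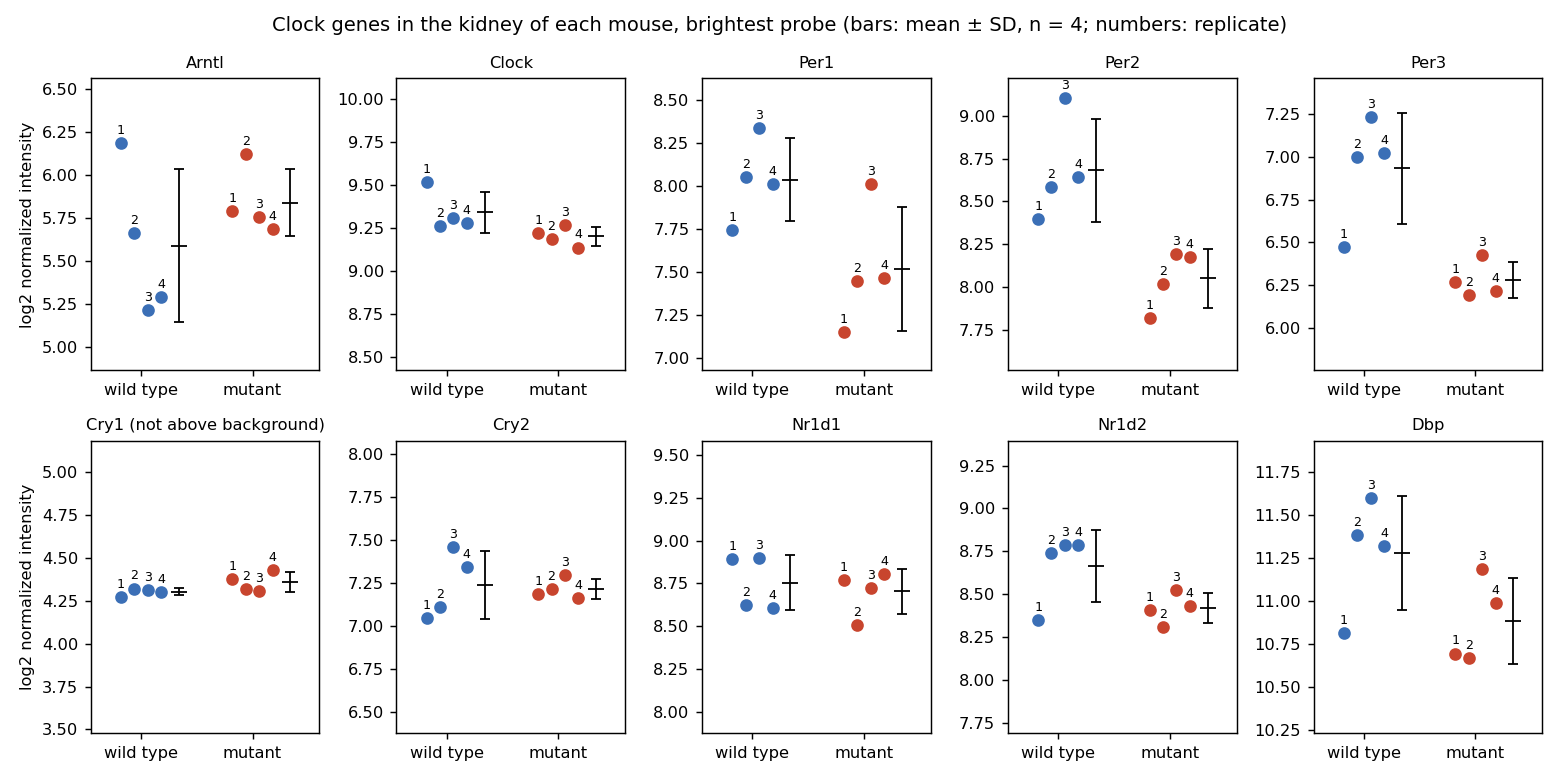
Normalized log2 intensity (vertical axis, the same span in every panel) of each clock gene at its brightest probe in 4 wild type and 4 mutant mice, with replicate numbers beside the points and the mean ± SD as bars. All 4 mutant mice lie below all 4 wild type mice for *Per2* and *Per3*, as they do for 11.1% of all genes. Wild type replicate 1 lies near the mutant mice for *Dbp* and *Nr1d2*.

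*Per3*, the *Per* paralog with the least part in keeping the core loop, separated the genotypes. Its log2 intensity was 6.47, 7.00, 7.23 and 7.02 in wild type replicates 1 to 4 and 6.27, 6.20, 6.43 and 6.22 in mutant replicates 1 to 4. The genotypes did not overlap, although the gap between wild type replicate 1 and mutant replicate 3 was small. Of all 9000 genes, 24.5% did not overlap, and 11.1% did so with the mutant mice lower. The means were 6.93 ± 0.32 (SD, n = 4) and 6.28 ± 0.11 (SD, n = 4), a difference of -0.65 (SE 0.14), or 0.636 of the wild type level. On the authors' normalized scale, which is linear, the *Per3* intensity spanned 73.7 to 136.7 in wild type and 58.0 to 71.3 in mutant kidneys. Without background correction the log2 difference was -0.30, the one member value that moved by more than the spread between mice.

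*Per2*, whose protein is a main repressor of the activator, had a pair of probes that gave the same order of genotypes. At the brightest probe it was at 8.40, 8.58, 9.10 and 8.64 in wild type replicates 1 to 4 and at 7.82, 8.02, 8.19 and 8.17 in the mutant mice, so the genotypes did not overlap. The means were 8.68 ± 0.30 and 8.05 ± 0.17 (SD, n = 4 each), a difference of -0.63 (SE 0.14). Groups that do not overlap were found in 24.5% of all genes. At the next probe of *Per2* the difference was -0.41 (SE 0.16), and 2 of the 4 mutant mice lay under the wild type range. Both probes ranked the mice much alike (r = 0.94 over 8 mice, against a median of 0.41 for the 2 brightest probes of 2324 genes). The remaining *Per2* probe was above background in 1 mouse of each genotype and was not tested.

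*Per1*, the paralog that also responds quickly to hormones and light, overlapped between the genotypes in a single mutant mouse. It was at 7.75, 8.05, 8.34 and 8.01 in wild type replicates 1 to 4 and at 7.15, 7.45, 8.01 and 7.47 in the mutant mice. Mutant replicate 3, the mouse with the highest *Adipoq*, stood among the wild type mice and the other 3 below all of them. The difference was -0.52 (SE 0.18), and at the other probe it was -0.52 (SE 0.20), with r = 0.91 between the probes.

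*Cry2*, the only *Cry* gene above background, was nearly level between the genotypes. It was at 7.04, 7.11, 7.46 and 7.34 in wild type replicates 1 to 4 and at 7.18, 7.21, 7.30 and 7.16 in the mutant mice, with all mutant mice inside the wild type range. The log2 difference was -0.03 (SE 0.09) and took the other sign in 2 of 16 alternatives. The *Cry1* probe was above background in 0 of 8 mice, so the array gives no comparison for it.

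*Dbp*, the output factor, had a lower mean in the mutant mice but was low in 1 wild type mouse as well. As scanned, its intensity was 1958, 3084, 3156 and 2750 in the wild type mice and 1660, 1569, 2431 and 2123 in the mutant mice. On the log2 scale it was at 10.81, 11.38, 11.60 and 11.32 in wild type replicates 1 to 4 and at 10.69, 10.67, 11.18 and 10.99 in the mutant mice. Wild type replicate 1 lay below mutant replicates 3 and 4, and the other wild type mice lay above all mutant mice. The means were 11.28 ± 0.33 and 10.88 ± 0.25 (SD, n = 4 each), a difference of -0.40 (SE 0.17). Leaving out wild type replicate 1 gave -0.55, and leaving out wild type replicate 3 gave -0.29.

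The REV-ERB genes, which encode the repressors of *Arntl*, were unlike each other. *Nr1d2* was at 8.35, 8.74, 8.78 and 8.79 in wild type replicates 1 to 4 and at 8.41, 8.31, 8.53 and 8.43 in the mutant mice. Wild type replicate 1 again lay among the mutant mice, and the difference was -0.25 (SE 0.10). *Nr1d1* was at 8.89, 8.62, 8.90 and 8.61 in wild type replicates 1 to 4 and at 8.77, 8.51, 8.73 and 8.81 in the mutant mice, and the genotypes overlapped widely. Its differences were -0.05 (SE 0.10) at the brightest probe and 0.04 (SE 0.12) at the other. The dimmer *Nr1d2* probe was above background in 1 of 8 mice and was not tested.

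The activator genes showed no common direction. *Arntl* was at 6.19, 5.66, 5.21 and 5.29 in wild type replicates 1 to 4 and at 5.79, 6.13, 5.76 and 5.68 in the mutant mice. The highest and the lowest of the 8 mice were both wild type, and the mutant mice lay within this range. Its difference was 0.25 (SE 0.20), and it ran from 0.07 (without background correction) to 0.45 over the alternatives. *Clock* was at 9.52, 9.26, 9.31 and 9.28 in wild type replicates 1 to 4 and at 9.22, 9.18, 9.26 and 9.14 in the mutant mice, a difference of -0.14 (SE 0.07), and 3 of 4 mutant mice lay under the whole wild type range. A dimmer *Clock* probe, above background in 3 wild type and 2 mutant mice, had -0.16 (SE 0.14), and the *Clock* probe left was above background in no mouse.

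**Figure D2:**
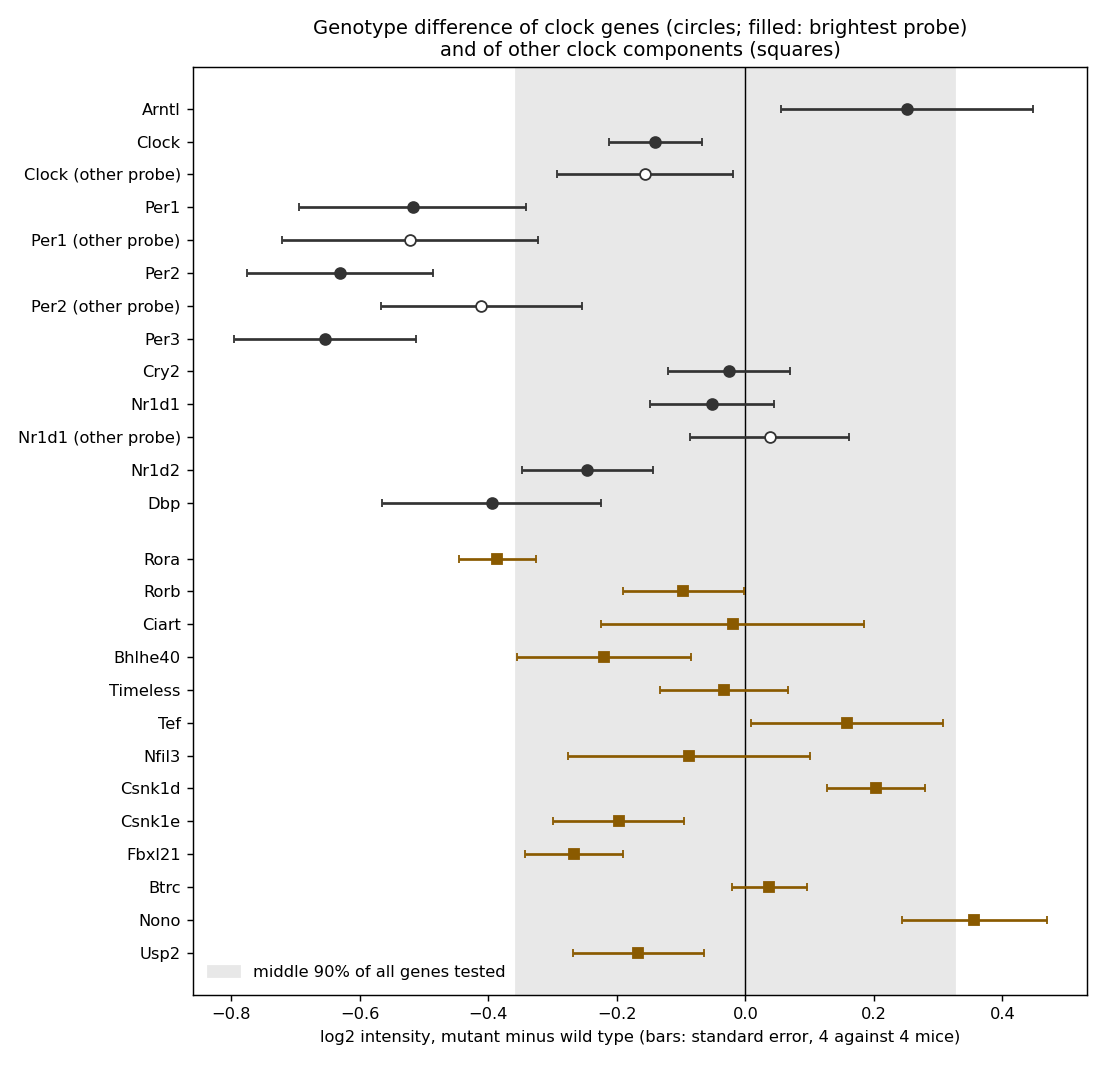
Log2 difference, mutant minus wild type (horizontal axis), with its standard error for each clock gene probe tested (circles, filled for the brightest probe) and each other clock component above background (squares). The *Per* genes and *Dbp* lie to the left of the grey band that holds the middle 90% of all genes tested, and *Arntl* lies inside the band on the right.

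Mice of the same genotype differed in several clock genes more than in most other genes. The SD within genotypes was 0.34 for *Arntl*, 0.31 for *Per1*, 0.29 for *Dbp*, 0.25 for *Per2* and 0.24 for *Per3* on the log2 scale, against a median of 0.12 over all genes. Among the probes tested, these values lay at percentile 98.9 for *Arntl*, 97.8 for *Per1*, 97.3 for *Dbp*, 92.8 for *Per2* and 92.2 for *Per3*. The *Arntl* probe was dim, scanned at 140.8 to 183.4 where the median of an array ran from 127.5 to 138.8. The part of this dim signal in its spread was not tested. *Nr1d2* (percentile 69.8), *Nr1d1* (63.4), *Cry2* (61.9) and *Clock* (31.7) varied less. The wild type SD exceeded the mutant SD in 8 of the 9 members, *Per1* being the exception, and in 48.3% of all genes. These 9 counts rest on the same 8 mice and were not tested. The red blood cell markers varied more still, with *Hba-a1* and *Alas2* both at percentile 99.9. *Hba-a1*, an alpha globin gene, was at 11.33, 12.91, 12.89 and 12.05 in wild type replicates 1 to 4 and at 12.43, 12.84, 11.38 and 11.47 in the mutant mice. Wild type replicate 1 was thus the lowest in *Hba-a1* as it was the lowest wild type mouse in *Dbp*, whereas mutant replicate 3 was the lowest mutant mouse in *Hba-a1* and the highest in *Dbp*. The part of blood in the clock gene values was not tested.

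The mice that were low in *Dbp* for their genotype were mostly low in the *Per* genes and high in *Arntl*. Wild type replicate 1 deviated from the wild type mean by -0.47 in *Dbp*, -0.46 in *Per3*, -0.29 in *Per1*, -0.28 in *Per2* and -0.31 in *Nr1d2*, and by 0.60 in *Arntl*. Wild type replicate 3 deviated by 0.32, 0.30, 0.30, 0.42 and 0.12 in these genes and by -0.38 in *Arntl*. The 2 mice thus lay at opposite ends for each of these genes within the wild type group except *Nr1d2*, in which replicate 4 was as high as replicate 3. Among the mutant mice, replicate 3 was high in *Per1* (0.49) and *Dbp* (0.30), replicate 1 was low in *Per1* (-0.37) and *Per2* (-0.23), and replicate 2 was low in *Dbp* (-0.22) and high in *Arntl* (0.29).

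Averaged over the 6 genes that the activator drives in the day and at dusk (*Per1*, *Per2*, *Per3*, *Nr1d1*, *Nr1d2* and *Dbp*), the deviation from the mean of all 8 mice was -0.07, 0.21, 0.48 and 0.21 in wild type replicates 1 to 4. It was -0.33, -0.33, -0.01 and -0.17 in mutant replicates 1 to 4. The deviation of *Arntl* was 0.47, -0.05, -0.50 and -0.42 in the wild type mice and 0.08, 0.41, 0.04 and -0.03 in the mutant mice. Wild type replicate 1 was thus below mutant replicate 3 in the average and above all other mice in *Arntl*.

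**Figure D3:**
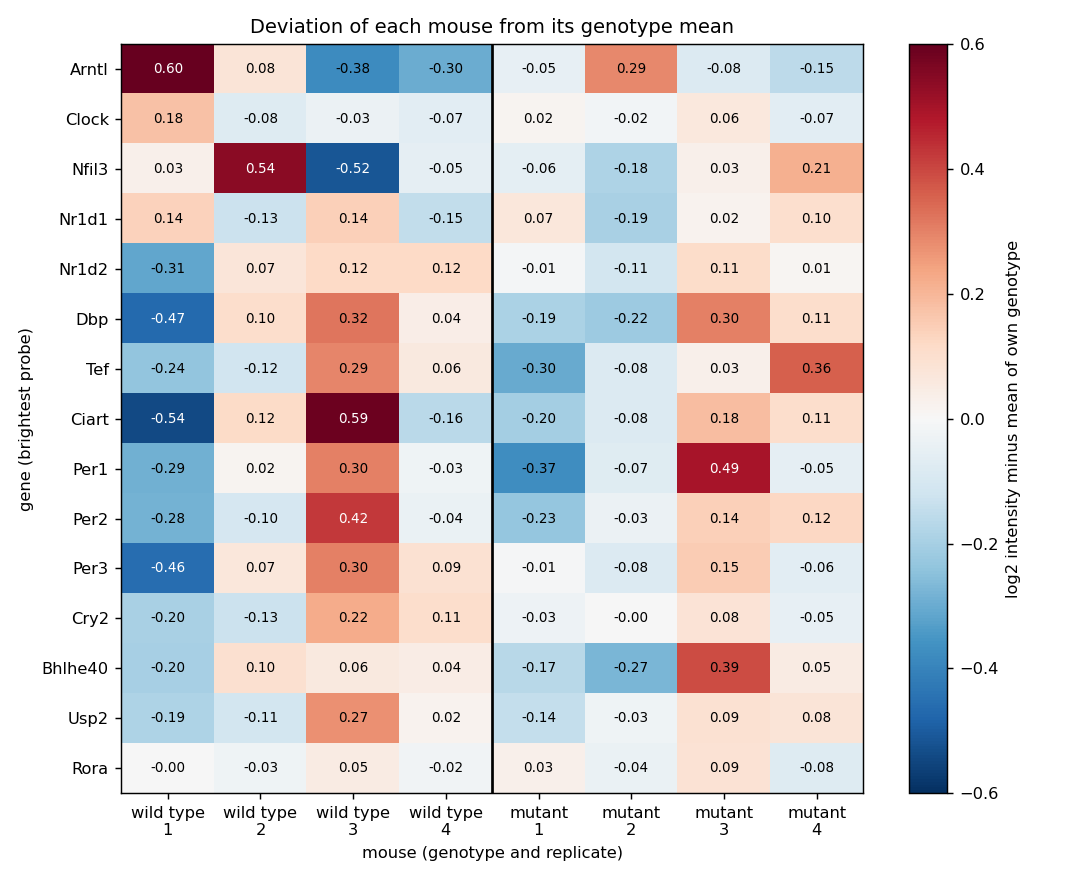
Log2 intensity of each mouse (columns) minus the mean of its own genotype, for the 9 clock genes above background and for 6 other clock components (rows, brightest probe), in red where above and blue where below that mean. Wild type replicate 1 is blue and replicate 3 red in *Dbp*, *Ciart* and the *Per* genes, with the colors turned in *Arntl*.

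Over these deviations, which leave out the genotype difference, the correlation with *Dbp* across the 8 mice was 0.90 for *Nr1d2*, 0.89 for *Per3*, 0.85 for *Per1*, 0.84 for *Per2* and 0.70 for *Cry2*, and -0.82 for *Arntl* (Spearman's rho 0.74, 0.83, 0.83, 0.83, 0.55 and -0.79). *Nr1d1* had 0.04. When the 2 mice farthest from the median of *Dbp* (wild type replicate 1 and mutant replicate 2) were left out, r was 0.95 for *Per1*, 0.87 for *Per2*, 0.72 for *Per3*, 0.72 for *Nr1d2* and -0.36 for *Arntl*. Over the deviations, the relation of *Arntl* with *Dbp* therefore rests on those 2 mice. Over the intensities themselves, which hold the genotype difference, r was -0.84 for *Arntl*, and -0.66 without the 2 mice farthest from the median of *Dbp*. For *Nr1d1* r was 0.15 there, and -0.83 without the same 2 mice, so its value depends on which mice are included. All values of a mouse come from 1 array, and its RNA and labelling are shared by every gene.

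**Figure D4:**
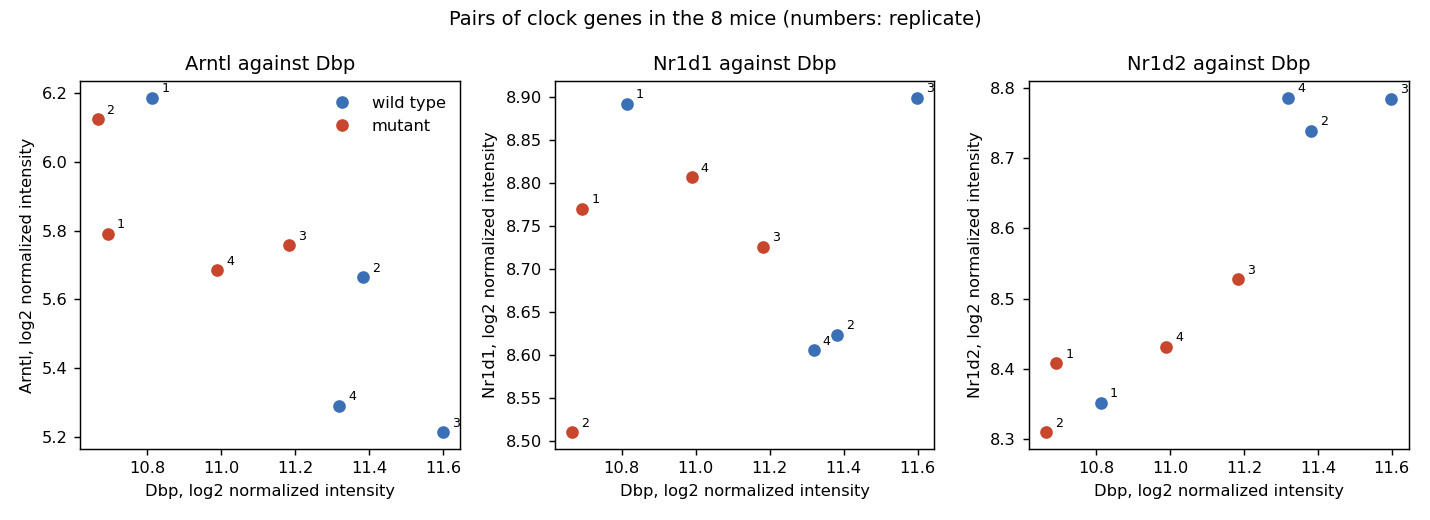
Log2 intensity of *Arntl*, *Nr1d1* and *Nr1d2* (vertical axes) against that of *Dbp* (horizontal axis) in the 8 mice, with replicate numbers beside the points. *Arntl* runs down and *Nr1d2* up with *Dbp*, with wild type replicate 1 beside the mutant mice. *Nr1d1* shows no clear run over all 8 mice (r = 0.15, and -0.83 without the 2 mice farthest from the median of *Dbp*).

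Other components of the clock, from a list of 20 genes, were compared between the genotypes with limma. This list and those that follow were drawn up with earlier results of these data known, which limits what their calls can show. Of the 20 genes, 13 were above background, 2 fell in the mutant mice, none rose and 11 did not pass the test, beside 7.88% of all genes that fell and 8.43% that rose. An unadjusted p under 0.05 from limma was found for 4 of the 13, beside 34% of all genes. SAM called 0 of the 18 on the array, beside only 234 of all 25697 probes. The median log2 difference of the 13 genes was -0.09, against 0.03 for all genes. *Rora*, the ROR activator of *Arntl*, was at 9.10, 9.08, 9.16 and 9.09 in wild type replicates 1 to 4 and at 8.75, 8.68, 8.81 and 8.64 in the mutant mice. All mutant mice lay below all wild type mice. Of the 13 genes, 3 did not overlap between the genotypes, beside 24.5% of all genes. The difference of *Rora* was -0.39 (SE 0.06, adjusted p = 0.00541 from limma). Its SD within genotypes was at percentile 8.45 of all probes, so *Rora* varied little among mice of a genotype, and the call held in all 16 limma alternatives (-0.46 to -0.31). *Fbxl21*, which encodes an F-box protein that acts on CRY, had a difference of -0.27 (SE 0.08, adjusted p = 0.0406) and was above background in 3 of the 4 mutant mice. Its call was lost in 11 of 15 limma alternatives, among them each mouse left out except mutant replicate 4.

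The repressors and output factors of this list did not pass the test. *Ciart* was at 5.53, 6.19, 6.66 and 5.91 in wild type replicates 1 to 4 and at 5.84, 5.97, 6.23 and 6.16 in the mutant mice, with a difference of -0.02 (SE 0.20, adjusted p = 0.955). Its spread within genotypes was at percentile 99.1, and its deviations correlated with those of *Dbp* (r = 0.90, and 0.85 without the 2 farthest mice). The other *Ciart* probe had a difference of -0.57 (SE 0.31, adjusted p = 0.22). *Bhlhe40*, a repressor of E-box genes, had -0.22 (SE 0.14, adjusted p = 0.279), and *Usp2*, a deubiquitinase gene under clock control, -0.17 (SE 0.10, adjusted p = 0.279). At the dimmer *Usp2* probes the differences were -0.36 (SE 0.11, adjusted p = 0.059) and -0.45 (SE 0.17, adjusted p = 0.0939). *Tef*, a relative of *Dbp* that binds the same D-boxes, had 0.16 (SE 0.15, adjusted p = 0.482), and *Nfil3*, which represses through D-boxes, -0.09 (SE 0.19, adjusted p = 0.773).

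The remaining components are enzymes and cofactors of the loop. *Csnk1d* and *Csnk1e* encode the kinases that phosphorylate PER proteins. At the brightest probe *Csnk1d* had a difference of 0.20 (SE 0.08, adjusted p = 0.095) and *Csnk1e* -0.20 (SE 0.10, adjusted p = 0.202). The other tested *Csnk1d* probes had 0.005, 0.175, -0.108 and -0.211 and were not called, so the direction of *Csnk1d* depends on the probe. The second *Csnk1e* probe had 0.27 (SE 0.07, adjusted p = 0.0285) and ran against the brightest probe over the 8 mice (r = -0.73), so the direction of *Csnk1e* depends on the probe. *Nono*, whose protein binds PER, had 0.36 (SE 0.11, adjusted p = 0.0568). It was above background in 1 wild type and 4 mutant mice, so the mutant mice alone carried it past the filter. *Rorb* (-0.10), *Timeless* (-0.03) and *Btrc* (0.04) had an adjusted p of 0.496, 0.841 and 0.69. *Npas2*, *Arntl2*, *Bhlhe41*, *Hlf* and *Fbxw11* were not above background on enough arrays.

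Genes downstream of the clock were compared through a list of 24 genes, of which 18 were above background, 2 rose, 2 fell and 14 did not pass the test, beside 8.43% of all genes that rose and 7.88% that fell. *Coq10b*, a gene of coenzyme Q function with a known daily rhythm in several tissues, was at 9.36, 9.52, 9.52 and 9.67 in wild type replicates 1 to 4 and at 8.89, 9.05, 9.19 and 9.04 in the mutant mice. The genotypes did not overlap, as in 24.5% of all genes. The difference of *Coq10b* was -0.47 (SE 0.09, adjusted p = 0.00898 from limma), with -0.77 (SE 0.10, adjusted p = 0.00297) at its next probe. The call held in all 16 limma alternatives. *Sgk1*, the aldosterone-induced kinase gene of sodium transport, was at 10.50, 10.14, 10.24 and 10.56 in wild type replicates 1 to 4 and at 9.88, 10.02, 9.95 and 9.65 in the mutant mice. Its difference was -0.48 (SE 0.11, adjusted p = 0.0204), and the call was lost without wild type replicate 1 (log2 difference -0.44).

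The 2 genes of this list that rose carry sodium in the distal nephron. *Slc12a3*, the thiazide-sensitive cotransporter gene, had a difference of 0.30 (SE 0.07, adjusted p = 0.0234), and *Scnn1a*, a subunit of the epithelial sodium channel, of 0.23 (SE 0.07, adjusted p = 0.0402). Every mutant mouse was above every wild type mouse for both genes. Of the 18 genes of the list above background, 4 did not overlap, beside 24.5% of all genes. Neither *Slc12a3* nor *Scnn1a* passed with median scaling or with the replicate number as a block. The call of *Scnn1a* was lost with any 1 mouse left out, with differences of 0.19 to 0.26, and that of *Slc12a3* without wild type replicate 1, 2 or 3 or mutant replicate 3, with differences of 0.25 to 0.34 over all mice left out in turn. The count for the list was 2 with median scaling, 1 without wild type replicate 1 and 2 without wild type replicate 2 or 3. Of the genes that did not pass, *Gpcpd1* had the lowest value, -0.39 (SE 0.17, adjusted p = 0.13). *Herpud1* did not pass at its brightest probe (-0.16, SE 0.07, adjusted p = 0.118). Its other probe was called lower by limma (-0.25, SE 0.08, adjusted p = 0.0498), and there the genotypes did not overlap, as at 23.8% of all probes tested. *Wee1*, a classical E-box target, was not above background.

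None of the listed genes that respond within hours to glucocorticoid hormone or to handling, as *Per1* also does, passed the test at its brightest probe. Of the 15 listed genes above background, limma called 0, beside 16.3% of all genes, and 3 had an unadjusted p under 0.05, beside 34%. SAM called 0 of the 23 on the array, beside only 234 of all 25697 probes. These counts depend on the choice of genes. *Sgk1*, by name a glucocorticoid-regulated kinase gene and called lower above, was held in the list of output genes and not in this one. At a dimmer probe limma called *Tsc22d3*, a glucocorticoid-induced gene (-0.33, SE 0.08, adjusted p = 0.0211), lower in all 4 mutant mice than in any wild type mouse. The genotypes did not overlap at 23.8% of all probes tested. A dimmer *Klf4* probe was above background in 4 wild type mice and no mutant mouse. It passed the filter through the wild type mice alone, so nothing is read from its call (adjusted p = 0.0208 from limma). At the brightest probe the difference was -0.06 for *Tsc22d3* (adjusted p = 0.714) and -0.12 for *Klf4* (adjusted p = 0.486). The 3 genes with an unadjusted p under 0.05 were *Fkbp5* (-0.24, SE 0.09, adjusted p = 0.0852), *Egr1* (0.76, SE 0.29, adjusted p = 0.0973) and the heat shock gene *Hspa1a* (-0.61, SE 0.25, adjusted p = 0.118). *Egr1*, an immediate early gene, was at 7.31, 7.69, 8.11 and 7.62 in wild type replicates 1 to 4 and at 7.66, 8.89, 8.17 and 9.08 in the mutant mice, and mutant replicates 2, 3 and 4 lay above all wild type mice. Limma called *Egr1* without mutant replicate 1, *Fkbp5* without mutant replicate 4 and *Hspa1a* without wild type replicate 4.

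Over the 8 mice, the genes outside the members whose intensities ran most like *Dbp* were *Brwd1* (r = 0.965), *Thoc1* (0.95), *Aph1a* (0.93), *Tmem144* (0.928) and *Rspry1* (0.926). Those that ran most against it were *Ccdc63* (r = -0.977), *BC048644* (-0.96), *Selenon* (-0.952), *S100a8* (-0.951) and *Serf2* (-0.94). *Bhlhe40* was at rank 23 and *Usp2* at rank 32 of 8991 genes, with r = 0.88 and 0.87, while *Ciart* was at rank 166. Over the deviations from the genotype means, the most like were *Pnpla2* (0.973), *Brwd1* (0.973), *Pdcl3* (0.969), *Ccdc114* (0.968) and *Mt1* (0.962), and the most opposed *Ccdc63* (-0.976), *Crlf3* (-0.957), *S100a8* (-0.957), *Rab39b* (-0.957) and *Prmt6* (-0.951). *Ciart* was then at rank 43, *Bhlhe40* at 133, *Usp2* at 196, *Tef* at 490 and *Nfil3* at 5034. With 8 mice and 8991 genes, 46 genes had a correlation above 0.9 and 42 below -0.9 in these deviations.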

How the data were processed

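Kidney RNA of each mouse was read on 1 array, an Illumina Mouse Ref8 v2.0 Expression BeadChip. The authors processed the scans in GenomeStudio 2011.1. Per the file headers and values, one table they deposited holds the unprocessed intensity of each probe, linear, and a detection p-value, for which the probe was ranked against the negative controls. In the other, the authors had subtracted background and applied cubic spline normalization to each intensity. Both tables ranked the probes identically in every mouse.

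Background was removed from the unprocessed intensities by neqc of limma 3.58.1 (R 4.3.3), which uses the detection p-values, adds an offset (16 here), quantile-normalizes and returns log2 values. A probe was tested where its detection p fell under 0.05 in 4 or more of the 8 mice. The linear model held genotype alone (lmFit, eBayes), with Benjamini-Hochberg adjustment over all tested probes. In a simulation of this comparison on 12914 probes with 200 changed, the fit called 52% of those changed 1.3-fold, 86% at 1.6-fold, 94% at 2-fold and 100% at 3-fold, and 7.26% of its calls were unchanged probes. Far fewer probes changed there than the 2167 called here, and noise was drawn separately for each probe. These shares therefore need not hold for the real arrays. SAM, which the study's methods name, was run as an alternative with a fold change above 1.6 and an FDR under 6%. The brightest probe over the 8 arrays stood for a gene. Names came from the platform annotation of the probes, updated by gene number through the GRCm38.p6 gene table (23962 of 23978 named probes matched, and 1719 probes had no name). Promoter windows are RefSeq sequence on GRCm38.p6.

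The members and lists were chosen with earlier results of these data known. Named are all members, the other clock components above background, the called genes of the other lists, and the 5 genes most and the 5 least correlated with *Dbp*. *Gpcpd1*, *Herpud1*, *Egr1*, *Fkbp5*, *Hspa1a*, *Tsc22d3*, *Klf4* and the markers given with values were named after their values were seen. Alternatives were other background corrections, scalings, offsets, filters and probe rules, the authors' intensities, the replicate number as a block, and each mouse left out. Precision is limited by the number of arrays, with a median SE of 0.0839 for a log2 difference. Each array is a separate mouse.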

Additional observations from a re-analysis of the deposited data

Results flagged for a closer look

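Among 55 genes of the members and the 3 other lists, a single mouse stood apart from the other 3 of its genotype in 5 of 110 groups, and about 1 in 20 groups is flagged by chance. *Nr1d2* was at 8.35 on the log2 scale in wild type replicate 1 and at 8.74 to 8.79 in the other wild type mice. *Fkbp5* was at 8.27 in homozygous mutant replicate 4, where the others were at 7.92 to 7.96. *Errfi1* was at 13.37 in homozygous mutant replicate 2, and the other mutant mice at up to 13.06. *Cdkn1a* was at 6.05 in wild type replicate 2, against 6.40 to 6.42. *Nono* was at 5.50 in homozygous mutant replicate 4, against 5.03 to 5.08.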

How the results depend on the processing

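Of 144 recomputed member differences, 143 moved by less than the gene's own spread between mice, and *Per3* was at -0.30 without background correction. Many of the 144 could not move. The filters on dim probes and the replicate block leave a member's difference as it is. The mean of a gene's probes does so for members with only 1 tested probe. The spread was wide for *Arntl*, which went from 0.25 to 0.07 without background correction and counts among the 143. The sign turned for *Nr1d1* in 1 and *Cry2* in 2 of 16 alternatives each. With one mouse left out in turn, the probes called ran from 1138 to 1686 (2167 with all mice), members past the threshold from 2 to 4 (2), other components called from 1 to 2 (2), output genes from 1 to 4 (4) and glucocorticoid and early response genes from 0 to 1 (0). Other components called numbered 1 (*Rora*) without background correction, with an offset of 50, without a filter on dim probes and at a detection p under 0.01. The glucocorticoid and early response list had 1 call without background correction (*Fkbp5*) and 1 with an offset of 50 (*Egr1*). Median scaling left 2 output genes. SAM with the methods' thresholds called 234 of 25697 probes, 1 member (*Per3*), 0 other components and 1 output gene (*Coq10b*). The replicate block called 1361 probes, 3 members (*Per1* added), 2 other components (*Nono* and *Rora*) and 1 output gene. The mutant mice alone carried *Nono* past the filter, so nothing is read from its call. The replicate numbers name mice only. Arrays with the same number deviated together with r = 0.13, -0.07, -0.097 and -0.023, and 1 of 4 correlated best with its own number. Of 95 recomputed values of called genes outside the members, 66 kept and 29 lost the call, all in the same direction, and why was not tested. Probes near background are limited by their dim signal, and the hour of collection is not given in the sources used here.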
